A study of Mus musculus with 3 samples.

Results

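Cd8-expressing T cells of the mouse colon are described here from single-cell RNA sequencing of 3 libraries. Members were selected on their own transcript counts: a cell had to carry at least 3 unique molecular identifiers (UMIs, each tagging 1 captured transcript) of Cd3d, Cd3e, Cd3g, Trac, Trbc1 and Trbc2 together, at least 1 of them from a Cd3 gene, and at least 1 UMI of Cd8a or Cd8b1. Cells with at least 300 genes and at most 25% mitochondrial UMIs entered. Cells with 3 or more UMIs of the B cell genes Cd79a, Cd79b and Ms4a1, or with 1% or more of their UMIs from Epcam, Krt8, Krt19, Car1, Zg16 and Muc2, were left out. Of 16406 cells of sufficient quality, 292 met every condition, out of 816 T cells that met all but the Cd8 condition. All mice were germ-free at the start: the first library came from mice that received PBS, the second from mice colonized with BT WT, and the third from mice colonized with BT mutant. The labels give neither the full name of BT nor the mutation, the strain, age or number of the mice, the time after colonization, or any sort of the cells. Each group had 1 library, so differences between libraries have no replicate check and no test, and animal, preparation and treatment cannot be told apart.

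CD8 is the coreceptor that lets a T cell receptor read peptides on MHC class I, the molecules by which nearly every cell displays its internal proteins. In the gut, cells with CD8 include naive T cells that circulate through lymphoid follicles, conventional effector and memory cells with the CD8 alpha-beta pair, and intraepithelial lymphocytes, many of which carry CD8 alpha pairs without the beta chain and either an alpha-beta or a gamma-delta receptor. Killer cells of these kinds store granzymes and perforin in granules, secrete the chemokine Ccl5 and carry the integrin Itgae, which binds E-cadherin on epithelium, while naive cells carry the chemokine receptor Ccr7, which guides entry into lymphoid tissue.

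Members numbered 90 in the PBS library, 138 in the BT WT library and 64 in the BT mutant library. Their median depth was 5956.5, 4849 and 4599 UMIs per cell, and their summed UMIs were 669166, 713745 and 323119, so the BT mutant values are the least precise. T cells without a Cd8 UMI, called Cd8-negative below, had medians of 4789, 3870 and 3546 UMIs. That class can hold cells whose Cd8 transcripts were not captured. Median mitochondrial content of members was 3.92%, 4.13% and 3.68%. The libraries shared 12 (PBS and BT WT), 8 (PBS and BT mutant) and 19 (BT WT and BT mutant) cell barcodes, none of them a member in both. At the edge of the rule, 20, 29 and 15 members had exactly 1 Cd8 UMI, and 0, 3 and 1 had exactly 3 T cell UMIs. Just outside it, 1, 0 and 0 cells with Cd8 UMIs had 1 or 2 T cell UMIs, 2, 3 and 1 failed only the B cell limit, and 1, 3 and 0 only the epithelial limit.

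Cd8-expressing cells made up 42.7% of T cells in the PBS library (90 of 211, exact Clopper-Pearson 95% interval 35.9 to 49.6), 32.3% in the BT WT library (138 of 427, 27.9 to 37.0) and 36.0% in the BT mutant library (64 of 178, 28.9 to 43.5). The PBS value was the highest, and its interval overlapped both others. These and all later intervals cover counting error only. Because deeper cells are more likely to yield a Cd8 UMI, every cell was also thinned to 1000 UMIs before the rule was applied. The shares were then 29.2% (33 of 113, 21.0 to 38.5), 18% (42 of 233, 13.3 to 23.6) and 19.6% (22 of 112, 12.7 to 28.2), again highest in PBS. As a share of all kept cells, members were 2.81%, 1.95% and 1.04%, a denominator that holds every other cell type captured. Against B cells of the same library there were 8.47, 9.15 and 5.12 members per 100 B cells. All T cells were 6.60%, 6.04% and 2.90% of kept cells, so T cells with and without Cd8 were both a smaller share in the BT mutant library.

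**Figure D1:**
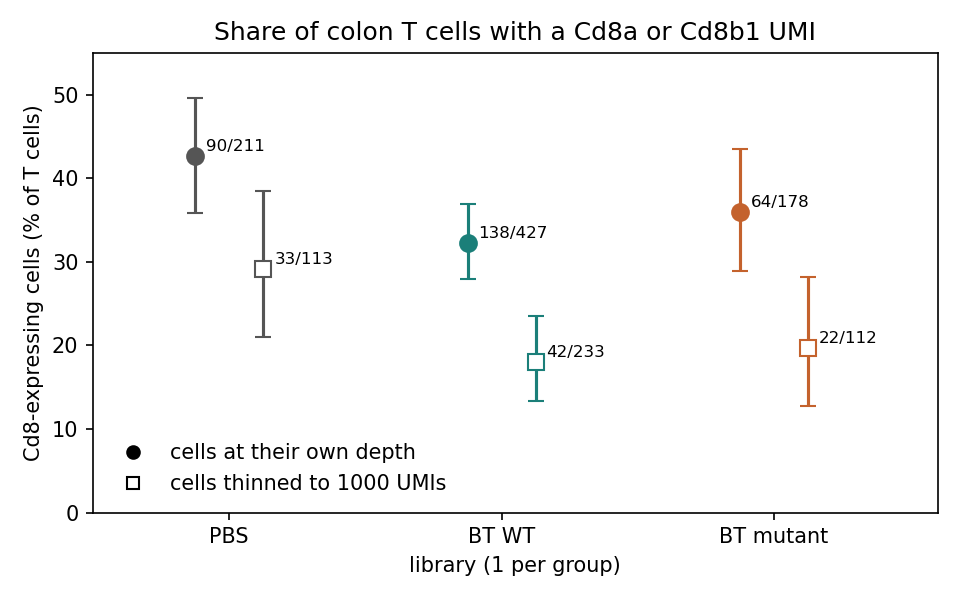
Share of T cells with at least 1 Cd8a or Cd8b1 UMI in each library (y axis, percent); filled circles are cells at their own depth, open squares cells thinned to 1000 UMIs, bars are exact 95% intervals and the labels give cells over T cells. The PBS library is highest in both, at 42.7% and 29.2%.

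The CD8 chains themselves chose the cells and are given as a description. Cd8a lies at chr6:71373427-71379173 and Cd8b1 at chr6:71322788-71337494, both on the plus strand of GRCm38 and protein coding in GENCODE vM21, and both encode chains of the coreceptor. Cd8a stood at 253, 178 and 248 CPM (UMIs of the gene per 1e6 UMIs of the class) for the 3 groups of members, in the order PBS, BT WT, BT mutant, and Cd8b1 at 504, 539 and 511 CPM. UMIs of both genes were seen in 51, 64 and 29 members, of Cd8b1 alone in 29, 59 and 23, and of Cd8a alone in 10, 15 and 12. Cd8a alone therefore marked 11.1% (5.46 to 19.5), 10.9% (6.21 to 17.3) and 18.8% (10.1 to 30.5) of members, with intervals that overlap. Cd3e, a subunit of the signalling complex of the T cell receptor, stood at 481, 325 and 217 CPM. The 250 bases before the Cd8a start are shown because this gene defines the cells (RefSeq, GRCm38.p6, chr6:71373177-71373426, plus strand, 5′ to 3′); neither motif searched below occurs in them.
Cd8a: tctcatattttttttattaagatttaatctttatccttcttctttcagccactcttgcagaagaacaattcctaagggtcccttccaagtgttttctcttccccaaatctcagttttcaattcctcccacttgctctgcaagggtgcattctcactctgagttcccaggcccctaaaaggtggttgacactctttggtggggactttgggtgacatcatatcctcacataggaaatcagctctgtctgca

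The label of the cells was then checked against Gzma and Ccl5, 2 markers that the rule did not use. Gzma, a granule protease of killer cells, was rare. It had UMIs in 6 of 90 PBS members (1, 1, 16, 65, 98 and 104 UMIs), in 4 of 138 BT WT members (31, 70, 80 and 140 UMIs) and in 2 of 64 BT mutant members (25 and 34 UMIs). B cells, which should lack it, had a Gzma UMI in 1 of 1063, 1 of 1508 and 2 of 1250 cells. Ccl5 had UMIs in 20, 17 and 18 members, against 8, 3 and 10 B cells of the same totals. Thus most members were T cells with Cd8 transcripts and without detected Gzma or Ccl5, and the 2 markers describe a minority of them.

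Ccl5 UMIs divided the members into cells at 0 and cells with many. Across the libraries, 237 members had none, 12 had 1 to 4, and 43 had 5 or more. The limit of 5 UMIs was set after these values were seen, and so were some of the genes named for it, so what follows describes the cells and no test was made. Members with 5 or more Ccl5 UMIs numbered 18 of 90 in PBS (20%, 12.3 to 29.8), 14 of 138 in BT WT (10.1%, 5.66 to 16.4) and 11 of 64 in BT mutant (17.2%, 8.90 to 28.7). The share was lowest in BT WT. The 3 intervals overlap, and no difference between libraries was tested. These cells had medians of 56, 42.5 and 32 Ccl5 UMIs and held 99.7%, 99.3% and 97.3% of all Ccl5 UMIs of members. Their median depth of 5273.5, 4549.5 and 3785 UMIs was not above that of the members without Ccl5 (5966.5, 4874 and 4783.5).

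The 237 members without Ccl5 carried genes of naive and recirculating T cells. Of these, 218 (92.0%) had a UMI of Ccr7 or Lef1 (68 of 70 in PBS, 115 of 121 in BT WT and 35 of 46 in BT mutant), and 226 (95.4%) had Cd8b1. Lef1, a transcription factor of naive T cells, was in 55 of 70, 89 of 121 and 31 of 46 such cells in PBS, BT WT and BT mutant. B cells had Lef1 in 7 of 1063, 1 of 1508 and 6 of 1250 cells. Ccr7 is expressed by B cells as well, which had it in 796 of 1063 PBS cells, and the part of free B cell RNA in these counts was not tested. Il7r, the receptor for the survival factor interleukin 7, was in 59, 96 and 40 of the Ccl5-free cells, and Klf2, a factor of circulating T cells that also marks B cells, in 65, 112 and 39. Nkg7, a granule membrane protein, was not limited to the Ccl5 cells: it had UMIs in 123 of the 237.

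**Figure D2:**
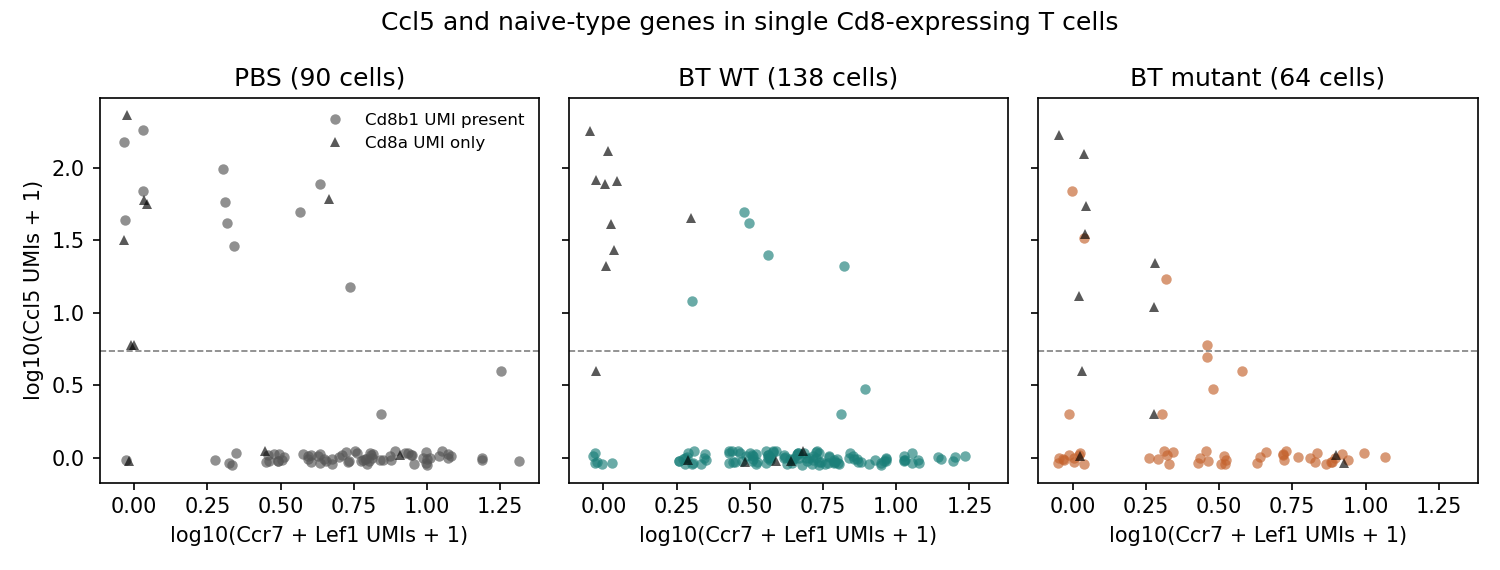
Each point is 1 Cd8-expressing T cell; the x axis is log10 of its Ccr7 and Lef1 UMIs plus 1, the y axis log10 of its Ccl5 UMIs plus 1, and points are spread slightly in x, and in y at 0, to show overlaps. Circles are cells with a Cd8b1 UMI, triangles cells with Cd8a only, and the dashed line separates 5 or more Ccl5 UMIs (18, 14 and 11 cells) from fewer.

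The 43 members with 5 or more Ccl5 UMIs carried the genes of killer and intraepithelial lymphocytes. In these cells Gzma stood at 2576, 3778 and 1171 CPM in PBS, BT WT and BT mutant, against 1.79, 0 and 0 CPM in the other members. Gzmb, the granzyme that cleaves caspases, stood at 218, 282 and 516 CPM against 0, 1.59 and 0. Nkg7 stood at 862, 941 and 1131 CPM against 147, 194 and 304, and Ctsw, a cathepsin of killer lymphocytes, at 444, 518 and 576 against 109, 92.2 and 183. All 4 were higher in the Ccl5 cells of all 3 libraries. Gzma, however, rests on 11 of the 43 cells, and Gzmb also on 11.

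Over 6813 genes with at least 20 UMIs, 3.74% were at least 2-fold higher and 3.2% at least 2-fold lower in the members with 5 or more Ccl5 UMIs, on the ratio of CPM plus 10. Of the lists of known genes, 7 of 16 NK receptors and adaptors entered, 10 of 13 cytotoxic genes and 7 of 13 chemokine and cytokine genes. Some of them entered only through the Ccl5 cells, where they are high: Ccl3 had 30 UMIs in these cells and 1 in the others, Ifng 29 and 2, and Klrk1 27 and 5. Counts over the genes that entered are therefore not given for these lists. All 16 genes of the naive and circulating list entered. Of these, 8 were at least 2-fold lower (median log2 ratio -1.02, all genes 0.08) and 1, Ly6c2, higher. Ly6c2, which is also carried by memory cells, was higher in PBS and BT WT and not in BT mutant, at 426, 329.5 and 159 CPM against 39.4, 66.8 and 209.

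Some genes of these lists and of the tissue residency and gut homing list showed the same order in each library, and others did not. Itga4 and Itgb7 were higher in the Ccl5 cells of only 1 library, and Ccr9 of 2. Klrk1 stood at 0 CPM in the Ccl5 cells of BT mutant, against 14.7 CPM in its other members. The genes that follow had the same order in all 3 libraries. Fcer1g, a signalling adaptor of NK cells and of innate-like intraepithelial lymphocytes, stood at 472, 129 and 218 CPM against 5.37, 7.95 and 11.0. Cd160, a receptor of intraepithelial lymphocytes, stood at 163, 106 and 218 CPM against 46.5, 3.18 and 44.0, and Cd7 at 481, 247 and 516 against 37.6, 20.7 and 91.7. Itgae was at 154, 118 and 357 CPM against 16.1, 14.3 and 40.3, and Itga1, which binds collagen, at 145, 129 and 159 against 1.79, 6.36 and 0. Rgs1, a regulator of chemokine receptor signals in tissue-resident T cells, was at 989, 859 and 1409 CPM against 59.0, 57.3 and 91.7. The chemokine Xcl1, which draws cross-presenting dendritic cells, was at 481, 94.1 and 238 CPM against 78.7, 12.7 and 11.0. In the opposite direction, Igfbp4 had no UMI in the 43 cells and stood at 94.8, 122 and 106 CPM in the others, and Ccr7 was at 118, 35.3 and 19.8 CPM against 408, 512 and 260.3. Even so, 18 of the 43 cells had a UMI of Ccr7 or Lef1.

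**Figure D3:**
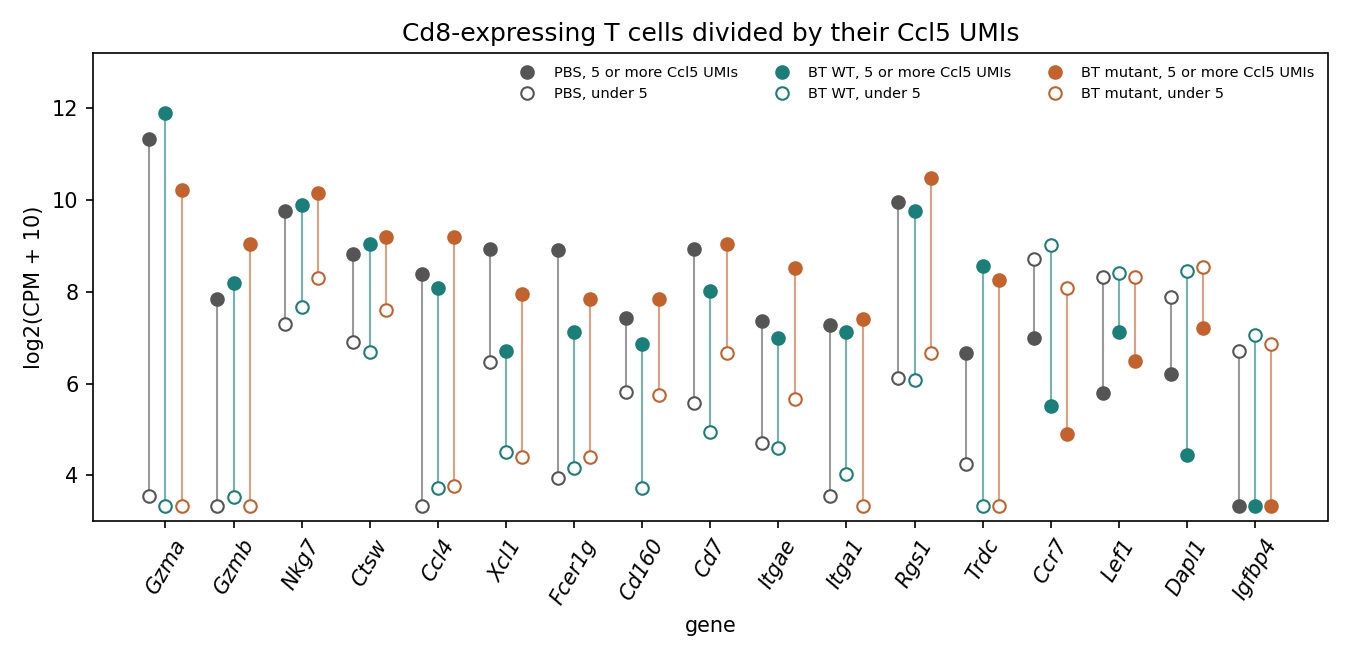
Level of 17 genes as log2 of CPM plus 10 (y axis) in members with 5 or more Ccl5 UMIs (filled circles) and under 5 (open circles), for each library by colour; lines join the 2 groups of a library. Gzma to Trdc are higher in the Ccl5 cells of each library and Ccr7, Lef1, Dapl1 and Igfbp4 are lower.

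Members with Cd8a and no Cd8b1 UMI were mostly Ccl5 cells. Of these, 7 of 10 in PBS, 9 of 15 in BT WT and 7 of 12 in BT mutant had 5 or more Ccl5 UMIs. Of members with Cd8b1 the numbers were 11 of 80, 5 of 123 and 4 of 52. Pooled, this is 62.2% (44.8 to 77.5) against 7.84% (4.86 to 11.9). Trdc, the constant chain of the delta receptor, had UMIs in 3 of 10, 4 of 15 and 4 of 12 of the Cd8a-only cells. Among members with Cd8b1 it was in 2 of 80, 1 of 123 and 0 of 52, where 0 of 52 allows up to 6.85% of cells with a Trdc UMI (exact). That bound limits detection and not the share of cells that express the gene. The CD8 chains were used to choose the cells, but Ccl5 and Trdc were not. The pattern was alike in the 3 libraries, and no difference between them was tested.

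The letters before the start of Gzma and Cd160 are shown because both genes were high in the Ccl5 cells (RefSeq, GRCm38.p6, 250 bases each, 5′ to 3′ on the strand of the gene). The window of Gzma is chr13:113100982-113101231 and that of Cd160 is chr3:96829352-96829601, both on the minus strand. Capitals mark the RUNX motif TGTGGTT or, as in both windows here, its other strand AACCACA. It begins 51 bases before the start in Gzma and 77 bases before the start in Cd160.
Gzma: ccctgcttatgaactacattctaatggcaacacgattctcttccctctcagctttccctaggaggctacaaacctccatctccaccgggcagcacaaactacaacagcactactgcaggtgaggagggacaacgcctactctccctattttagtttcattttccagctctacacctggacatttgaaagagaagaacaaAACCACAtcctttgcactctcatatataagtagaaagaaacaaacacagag
Cd160: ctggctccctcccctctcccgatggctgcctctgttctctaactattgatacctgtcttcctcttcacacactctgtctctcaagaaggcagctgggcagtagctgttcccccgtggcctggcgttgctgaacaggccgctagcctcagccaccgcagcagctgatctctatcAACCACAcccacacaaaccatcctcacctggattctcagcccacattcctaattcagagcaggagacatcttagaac
The search itself used RefSeq windows of the 250 bases before each start, and some genes have more than 1. On both strands, TGTGGTT occurred in 4.4% of all 32851 such windows. It occurred in 15 of 54 windows (27.8%) of genes of the cytotoxic, chemokine, NK receptor and residency lists. These windows belong to 13 of the 46 genes that had a window (28.3%), of 60 looked for. Several of these genes are tandem copies of each other (granzymes and Klr receptors) and share sequence. A T-box motif, GGTGTGA, occurred in 3.33% of all windows and in 6 of the 54 list windows (11.1%). These belong to 6 of the 46 genes, among them Nkg7, Xcl1 and Cd160. In Cd160 it lies in the window of another start and not in the bases printed here. A match is a description of the letters only.

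Cd8-expressing and Cd8-negative T cells were then compared within each library, a difference that could be tested over the 3 libraries. Racgap1, Fam241a and Nkg7 were among the genes that rose in Cd8-expressing cells, and Cd4, Tyrobp, Cd40lg and Ikzf2 were among those that fell. Of 6262 genes tested with edgeR's quasi-likelihood test on summed UMIs with the library as a block, 56 (0.894%) were higher and 15 (0.24%) lower at an adjusted p under 0.05. At an unadjusted p under 0.05 there were 243 and 281. The counts depend on the settings: DESeq2 called 4 higher and 7 lower, all among the genes named here, and without the BT WT library 1 and 4 were called. With cells thinned to 1000 UMIs, 698 genes could be tested and none was called.

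Of the 56 genes that rose, 47 encode cytosolic ribosomal proteins, with small differences between 0.22 and 0.46 on the log2 scale. Ribosomal protein genes gave 31.3% of members' UMIs in PBS against 24.2% in Cd8-negative cells, 35.0% against 30.9% in BT WT and 34.9% against 30.8% in BT mutant. This group was put together after the calls were seen. Eef1b2, a translation elongation factor, and Npm1, a nucleolar protein of ribosome assembly, also rose (log2 fold changes 0.49 and 0.48, adjusted p = 0.017 and 0.044 by edgeR, higher in 3 of 3 libraries). None of these genes was called by DESeq2.

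Larger differences were seen in 6 other genes. Racgap1, which regulates small GTPases in cell division and the cytoskeleton, stood at 76.2, 70.1 and 46.4 CPM in members and at 10.2, 7.44 and 2.31 CPM in Cd8-negative cells (log2 fold change 3.23, edgeR adjusted p = 0.0087). Fam241a, a gene of little known function, stood at 170, 161 and 158 CPM against 23, 36.4 and 27.7 CPM (log2 2.53, edgeR adjusted p = 0.0071). No library of one class reached the range of the other for these genes. Nkg7 was at 265, 283 and 433 CPM against 76.5, 160 and 173 CPM (log2 1.35, edgeR adjusted p = 0.019). Dnajc15, a mitochondrial cochaperone, rose by 1.35 on the log2 scale (edgeR adjusted p = 0.014), and Ms4a4c and Ehd1, a regulator of membrane recycling, by 2.05 and 1.59 (edgeR adjusted p = 0.044 and 0.035). Each was higher in 3 of 3 libraries, and Racgap1, Fam241a, Nkg7 and Dnajc15 were also called by DESeq2.

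The markers of killer cells other than Nkg7 did not pass the test. Gzma stood at 426, 450 and 183 CPM in members and at 0, 145 and 42 CPM in Cd8-negative cells, where it had UMIs in 0, 1 and 1 cells (log2 2.93, edgeR adjusted p = 0.20). Ccl5 was at 1872, 1160 and 1727 CPM against 811, 1233 and 1717 CPM (log2 0.43, edgeR adjusted p = 0.65). It was higher in members of 2 of 3 libraries, in BT mutant by little, and 26 of 121, 61 of 289 and 20 of 114 Cd8-negative cells had it. Gzmb, Itgae and Cd160 had adjusted p of 0.50, 0.73 and 0.78 by edgeR. Ccr9, the receptor that directs lymphocytes to the intestine, stood at 44.8, 44.8 and 43.3 CPM against 14.0, 14.9 and 2.31 CPM and missed the threshold (log2 1.97, edgeR adjusted p = 0.076). Of 10 cytotoxic genes tested 1 passed, and of 16 naive and circulating genes 1 passed, Igfbp4, which was lower in members. Of all 6262 genes tested, 0.894% were called higher and 0.24% lower. The 16 listed NK receptors and adaptors summed to 477, 282 and 495 CPM in members. In Cd8-negative cells they summed to more in each library, at 660, 715 and 742 CPM.

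The genes that fell included markers of helper T cells and of innate lymphocytes. Cd4, the coreceptor of helper cells, stood at 2.99, 7.01 and 6.19 CPM in members and at 74.0, 85.2 and 113 CPM in Cd8-negative cells (log2 -3.93, edgeR adjusted p = 0.0071). It had UMIs in 2, 4 and 2 members. Cd40lg, the helper signal to B cells, stood at 5.98, 2.80 and 18.6 CPM against 97.0, 127 and 60.1 CPM (log2 -3.68, edgeR adjusted p = 0.020). Ikzf2, a factor of regulatory and innate-like T cells, was at 74.7, 72.9 and 55.7 CPM against 207, 207 and 217 CPM (log2 -1.55, edgeR adjusted p = 0.0096). Tyrobp, an adaptor of NK and myeloid receptors, was at 0, 2.80 and 3.09 CPM against 51.0, 61.2 and 20.8 CPM (log2 -4.62, edgeR adjusted p = 0.014). Foxp3, the factor of regulatory T cells, was too low to be tested, with UMIs in 0, 0 and 1 members. The other genes named by rule were Pdlim4, Ly6c1, Ifitm2, Tmem64, Tesc, Itm2a, Igfbp4 and Dcn, with log2 fold changes of -1.10 for Igfbp4 to -3.81 for Pdlim4.

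Dcn, a matrix proteoglycan of fibroblasts, is not a T cell gene. It was at 14.9, 5.6 and 15.5 CPM in members and at 205, 177 and 34.7 CPM in Cd8-negative cells, and the 11 stromal and endothelial markers summed to 71.7, 64.4 and 61.9 CPM against 614, 328 and 106 CPM. B cells had 282, 191 and 229 CPM of Dcn, so members were lowest. The 9 erythroid and fat markers stood at 10080 CPM in the Cd8-negative cells of the PBS library, against 148 CPM in its members. The part of such mixed cells in the other calls was not tested. Of 16 immediate early genes, which rise within minutes of a stimulus or of tissue handling, 10 were lower in members of all 3 libraries. Of all 6262 genes tested, 1202 were lower in all 3. The median log2 fold change of the 16 was -0.33 (all genes -0.02). Of the 16, 1 was called lower, beside 0.24% of all genes tested.

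**Figure D4:**
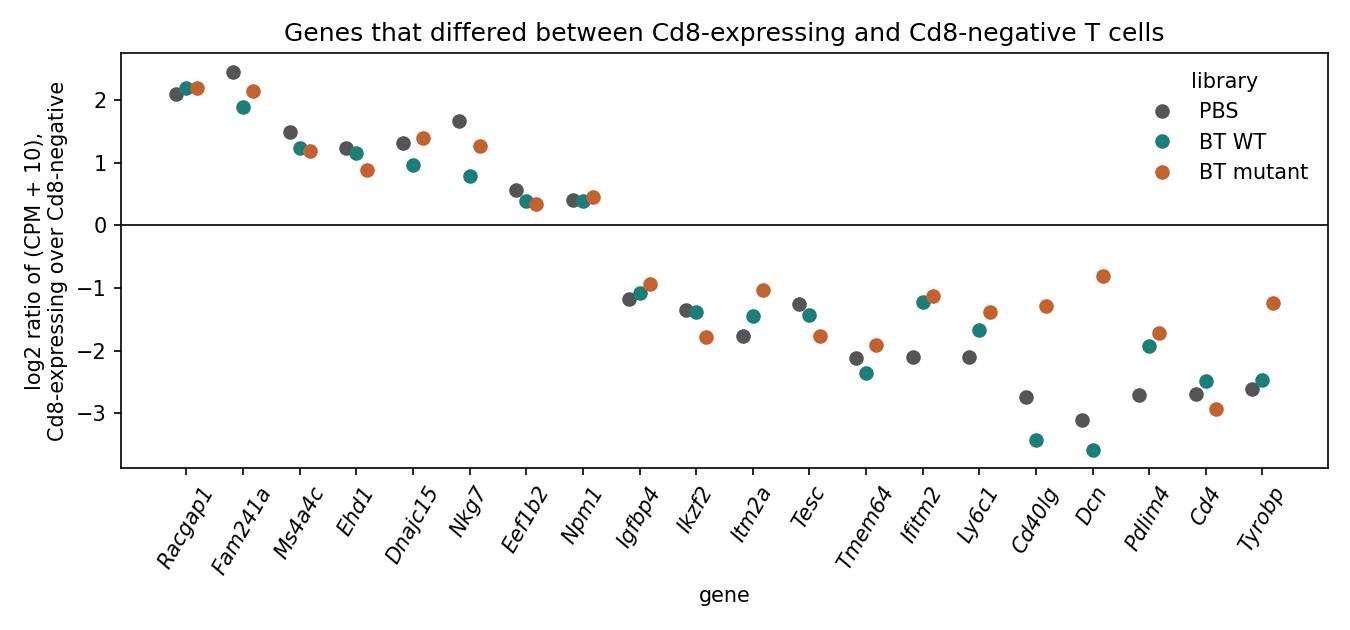
log2 ratio of CPM plus 10 in Cd8-expressing over Cd8-negative T cells (y axis) for the 20 genes named by rule (x axis), with 1 point per library. The 8 genes at the left are above 0 and the 12 at the right below 0 in each of the 3 libraries.

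Between libraries, each gene's CPM in members was compared with no test. With BT WT over PBS, 46 of 6121 genes were at least 2-fold higher (0.752%) and 208 at least 2-fold lower (3.4%). With BT mutant over BT WT the shares were 2.24% higher and 2.56% lower of 5035 genes, and with BT mutant over PBS 1.58% higher and 6.79% lower of 5185. The median of all genes was -0.13, 0.00 and -0.14 on the log2 scale for these pairs, and the PBS library had the deepest cells. The pairs share libraries and are not independent. A gene entered with at least 20 UMIs over both sums, so a list gene low in both libraries could not enter, and counts over the genes that entered describe those genes and do not support a statement on a whole list. Lists are described below by the role of their genes, and where a value rested on few cells their number is given.

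Several inhibitory receptors, which restrain activated T cells, were highest in members of the PBS library. Pdcd1 (PD-1) stood at 61.3 CPM in PBS, 4.2 in BT WT and 3.09 in BT mutant, with UMIs in 8, 1 and 1 cells. Lag3 stood at 49.3, 0 and 3.09 CPM, with UMIs in 11, 0 and 1 cells. Ctla4 was at 193, 42.0 and 34.0 CPM, with UMIs in 21, 13 and 5 cells, and was 4.59-fold (3.06 to 7.07) higher in PBS than in BT WT. Tnfrsf9, a costimulatory receptor of activated cells (4-1BB), was at 37.4, 1.40 and 0 CPM. Of the 10 listed genes 5 entered, some only through PBS, where they are high. Pdcd1, for example, had 41 UMIs in PBS, 3 in BT WT and 1 in BT mutant. Counts and medians over the genes that entered are therefore not read as a result. In PBS, 10 of 90 members had UMIs of 2 or more of Pdcd1, Lag3, Ctla4 and Tnfrsf9. These cells held 88.6% of the UMIs of the 4 genes, at a median of 10717 UMIs per cell. BT WT had 1 such cell and BT mutant 0.

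Genes of dividing cells showed a like concentration. Top2a, the topoisomerase of chromosome segregation, stood at 70.2, 16.8 and 6.19 CPM in the same order, and Mki67 at 55.3, 9.81 and 6.19 CPM. A single PBS member, the deepest at 33867 UMIs, held 91.2% of the Mki67, Top2a and Ube2c UMIs of that library. Cells with UMIs of 2 or more of these genes numbered 1, 2 and 0. Dividing members were thus too few to compare.

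Several receptors of innate-like killer cells, though not the whole list, were lowest in the BT WT members. Cd160 stood at 65.8, 15.4 and 71.2 CPM in PBS, BT WT and BT mutant, with UMIs in 15 of 90, 6 of 138 and 12 of 64 cells. It was 4.27-fold (2.17 to 9.16) lower in BT WT than in PBS and 4.62-fold (2.16 to 10.5) higher in BT mutant than in BT WT. Cd7 stood at 111, 47.6 and 158 CPM, and Cxcr6, the receptor that keeps T cells at epithelial surfaces, at 71.7, 12.6 and 74.3 CPM. Itgae stood at 38.9, 26.6 and 89.8 CPM, highest in BT mutant. Klrd1, the most abundant gene of the NK receptor list, was lowest in PBS, at 106, 140 and 164 CPM, and Klrk1 lowest in BT mutant, at 23.9, 16.8 and 12.4 CPM. For Fcer1g, at 82.2, 22.4 and 43.3 CPM, the BT mutant over BT WT ratio of 1.93 (0.874 to 4.23) did not exclude 1. Of the 16 listed NK receptors and adaptors, 7 entered for BT WT over PBS and 4 for BT mutant over BT WT. A gene that is high in 1 library can enter through it alone, so counts and medians over these genes are not read as a result. Cd160, Cd7, Cxcr6, Itgae and Fcer1g were also higher in the Ccl5 cells than in other members. The share of Ccl5 cells was 20%, 10.1% and 17.2% of members, and its part in these differences was not tested. Among members with under 5 Ccl5 UMIs, only 3 NK receptor genes entered for BT WT over PBS and 2 for BT mutant over BT WT.

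Secreted factors of these cells varied from gene to gene. Ccl5 stood at 1872, 1160 and 1727 CPM. Ccl3, a chemokine of activated killer cells, was lowest in PBS, at 4.48, 8.41 and 68.1 CPM, from 2, 5 and 2 cells. Xcl1 stood at 145, 22.4 and 46.4 CPM, 6.47-fold (3.79 to 11.8) lower in BT WT than in PBS. Gzmb stood at 35.9, 35.0 and 80.5 CPM, 2.30-fold (1.27 to 4.15) higher in BT mutant than in BT WT, from 3, 4 and 5 cells. Gzma was 2.46-fold (1.86 to 3.31) lower in BT mutant than in BT WT, from 2 and 4 cells, and turned the other way when each cell had equal weight, when cells were thinned, or without the 5% deepest T cells. Tnf, an inflammatory cytokine, stood at 13.4, 23.8 and 61.9 CPM, with UMIs in 6, 14 and 11 cells. Il17a had 58.3 CPM in PBS, from 3 cells, and none in the other libraries. Nkg7 stood at 265, 283 and 433 CPM and, unlike the others, had UMIs in most members (54 of 90, 74 of 138 and 44 of 64).

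Naive and circulating genes differed little. All 16 entered in each pair, none was at least 2-fold apart, and the medians were 0.26, -0.30 and -0.04. Ccr7 stood at 360, 455 and 223 CPM and was 2.04-fold (1.58 to 2.68) lower in BT mutant than in BT WT on the ratio without a pseudocount. Lef1, in turn, stood at 265, 307 and 275 CPM and Dapl1, a gene of naive CD8 T cells, at 200, 301 and 325 CPM. Ly6c2 was at 103, 98.1 and 201 CPM. T cell receptor signalling genes had medians between -0.04 and 0.07 with 0 of 17 genes past 2-fold in any pair.

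Interferon-stimulated genes differed in both directions, while genes of MHC class I loading differed less. Of 28 listed interferon-stimulated genes, 14 entered for BT WT over PBS. Ifit1bl1 had 45 UMIs in BT WT and 2 in PBS, so it entered through BT WT alone. Counts and a median over the genes that entered are therefore not given. The 27 genes found in the data summed to 944, 937 and 870 CPM in members of PBS, BT WT and BT mutant. Ifit1bl1 and Igtp were at least 2-fold higher in BT WT than in PBS. Igtp, a GTPase of cell-autonomous defence, stood at 19.4, 49.0 and 31.0 CPM, Gbp4 at 22.4, 54.6 and 27.9 CPM and Ifi47 at 29.9, 58.8 and 65 CPM. Ifi27l2a was in the opposite direction, at 354, 146 and 170 CPM. Ifit1bl1 stood at 2.99, 63.0 and 46.4 CPM in members, but also at 55.2 CPM in B cells and 70.1 CPM in epithelial cells of the BT WT library, and the part of free RNA was not tested. Of 17 MHC class I and immunoproteasome genes none was past 2-fold on the ratio of CPM plus 10. Without the pseudocount Psmb10, a subunit of the immunoproteasome, was 2.01-fold higher in BT WT and 2.13-fold higher in BT mutant than in PBS, at 52.3, 105 and 111 CPM, and H2-Q7, a class I molecule, at 378, 647 and 551 CPM.

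A difference in a gene detected in most members was that of Vps37b, a subunit of the complex that sorts ubiquitinated receptors to lysosomes. It stood at 2101 CPM in PBS members (UMIs in 89 of 90 cells), 1475 in BT WT (131 of 138) and 424 in BT mutant (49 of 64). It was 4.96-fold (4.16 to 5.95) lower in BT mutant than in PBS and 3.48-fold (2.91 to 4.19) lower than in BT WT. Cd8-negative T cells had 2328, 1855 and 693 CPM and B cells 711, 486 and 136 CPM, the same order of the libraries as in members. Epithelial cells, at 75.3, 78.8 and 84.4 CPM, did not show this order. Nr4a3, an orphan nuclear receptor induced by T cell receptor signals, stood at 241, 228 and 49.5 CPM in members and at 373, 297 and 129 CPM in Cd8-negative cells. Rrad, a small GTPase, stood at 102, 146 and 30.9 CPM in members and 56.1, 156 and 34.7 CPM in Cd8-negative cells. Junb, an immediate early factor, was at 3830, 3349 and 1835 CPM. In BT mutant, 4 of 16 immediate early genes were at least 2-fold lower than in PBS, beside 6.79% of all 5185 genes. The median of the 16 was -0.35 (all genes -0.14).

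For other genes named by rule, levels in B cells and epithelial cells are given beside those of members. All 6 that were highest in BT WT over PBS (Ifit1bl1, Tns4, Trio, Prom1, Rflnb and Slc9a2) had at least 50% of the members' level in B cells or epithelial cells of BT WT. The same held for 4 of the 6 named as lower in BT WT than in PBS. For BT mutant over BT WT it held for 3 of 6 higher and 2 of 6 lower genes, and for BT mutant over PBS for 5 of 6 and 3 of 6, each in the library with the higher level. Cfd and Fabp4, fat cell genes, stood at 53.8 and 47.8 CPM in PBS members and 0 and 5.6 CPM in BT WT, beside 145 and 119 CPM in PBS B cells. Gclc, an enzyme of glutathione synthesis, stood at 130, 16.8 and 30.9 CPM, beside 394 CPM in PBS epithelial cells. The 16 epithelial markers summed to 5112, 3245 and 5852 CPM in members. Of these, 9 were at least 2-fold higher and 3 at least 2-fold lower in BT mutant than in BT WT, beside 2.24% and 2.56% of all genes. The part of free RNA in these values was not tested. Of the T cell genes, Ubash3b, a phosphatase that damps receptor signals, stood at 56.8, 8.41 and 18.6 CPM, with 7.96 CPM in PBS B cells, and Tnfrsf1b, a receptor for tumour necrosis factor, at 76.2, 33.6 and 3.09 CPM.

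Respiratory chain genes of the nuclear genome were on balance lower in BT WT than in the other libraries, by small amounts. All 22 entered, with medians of -0.39 for BT WT over PBS and 0.46 for BT mutant over BT WT, and 0 were past 2-fold in any pair. Cox6a1, a subunit of cytochrome c oxidase, stood at 326, 174 and 195 CPM, and Uqcrb, a subunit of the cytochrome bc complex, at 166, 125 and 226 CPM. B cells showed a like order for Uqcrb, at 328, 225 and 379 CPM. The 22 genes summed to 7941, 6187 and 8139 CPM in members and 10687, 6349 and 8084 in Cd8-negative T cells. In B cells they summed to 9885, 7913 and 11459 CPM, and in epithelial cells to 8181, 4142 and 8188. BT WT was thus lowest in each of these classes, and the part of free RNA was not tested.

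**Figure D5:**
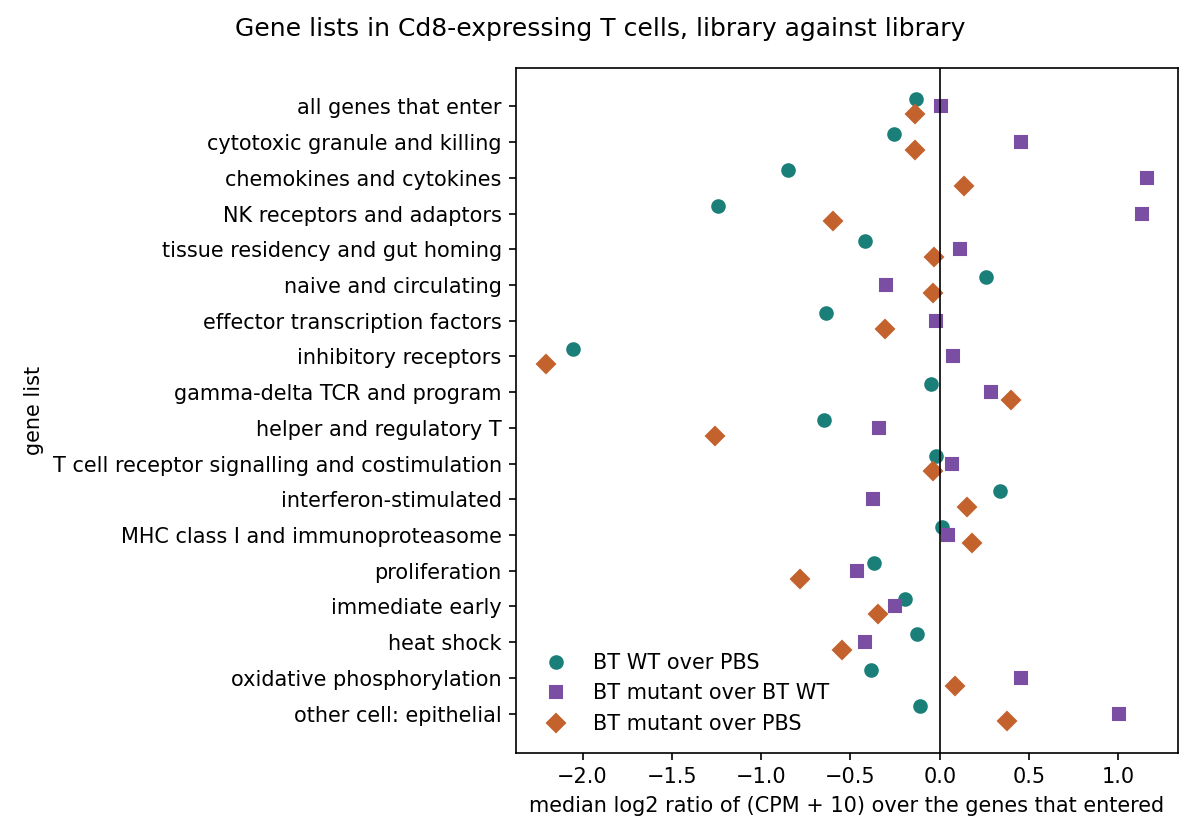
Median log2 ratio of CPM plus 10 (x axis) over the genes of each list that entered (y axis), with a symbol for each pair of libraries and the median of all genes in the top row. Inhibitory receptors lie near -2 against PBS in both colonized libraries (5 genes), and NK receptors and chemokines lie below 0 for BT WT over PBS and above 0 for BT mutant over BT WT.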

How the data were processed

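Dissociated colon cells were profiled with 10x Chromium 3' v3 chemistry, per the labels' protocols. The deposited UMI counts of 32285 genes came from Cell Ranger 5.0.0, per the file headers; STAR and mm10 are named in the submitters' processing notes. The totals were 42003444, 55436776 and 54943483 UMIs over 4425, 8829 and 8195 cell barcodes in PBS, BT WT and BT mutant. From these counts, cells were selected by the rule given above and summed per library and class. Doublets were handled by the B cell and epithelial limits of the rule, and no doublet caller was run. The members and the 21 gene lists (320 entries, 2 not found) were chosen with earlier results of these data known.

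Class sums were tested with edgeR 4.0.16 (R 4.3.3; quasi-likelihood, TMM, filterByExpr, library as block, Benjamini-Hochberg adjustment over all genes tested). Genes called at 0.05 and alike in direction in the 3 libraries were named, at most 12 a direction by fold. Libraries were compared by CPM ratio, with a pseudocount of 10 and at least 20 UMIs in both sums together, and 6 genes a direction were named among those with 30 UMIs, 5 cells, no cell over 25% of the UMIs and at least 25% of the level in B and epithelial cells. Rule, mitochondrial, ribosomal, immunoglobulin, T cell receptor, predicted and sex-linked genes were left out of both. Fixed markers and the most abundant and most different genes of each list were named besides. Intervals of ratios are exact conditional binomial 95% intervals without the pseudocount, and those of shares are Clopper-Pearson. Nothing says whether the libraries hold cells of 1 or more animals, and the p-values measure the spread between these 3 libraries. On simulated counts over 6278 genes, the class test recovered 52% of 2-fold and 89% of 4-fold changes, with 8 false calls. DESeq2 1.42.0, other limits on cells, thinning, other pseudocounts and each library left out were tried as alternatives.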

Additional observations from a re-analysis of the deposited data

How the results depend on the processing

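Thinning to 1000 UMIs gave Cd8-expressing shares of 29.2%, 18% and 19.6% of T cells (PBS, BT WT, BT mutant), while requiring 2 Cd8 UMIs gave 27.4% in BT WT. Higher and lower class calls (56 and 15) became 110 and 102 with a 10% mitochondrial limit, 2 and 2 with none, 101 and 55 without the 5% deepest T cells, 4 and 7 with DESeq2, 115 and 210 without the low-count filter, 0 and 0 when thinned (698 genes tested), and 3 and 5 without the library as block. The labels carry no replicate numbers, so the library is the only possible pairing. With each library left out in turn, 1 to 181 genes were higher and 4 to 111 lower; without PBS there were 181 and 111, without BT WT 1 and 4, and without BT mutant 2 and 14. The share of genes at least 2-fold higher in BT WT than in PBS was 0.244% with the 10% mitochondrial limit, 4.02% thinned, 0.387% without the deepest cells, 1.16% with median scaling, 0.467% with 40 UMIs required and 0.0327% with a pseudocount of 50; the share lower was 5.45% with 2 Cd8 UMIs, 7.24% thinned and 0.621% with the pseudocount of 50. For BT mutant over BT WT, the share higher was 4.97% with 2 Cd8 UMIs, 5.82% thinned and 0.536% with the pseudocount of 50, and the share lower 8.22% thinned and 0.278% with that pseudocount. For BT mutant over PBS, the share higher was 0.930%, 2.50%, 2.62%, 0.809%, 0.901% and 0.251% with the 10% limit, 2 Cd8 UMIs, thinning, without the deepest cells, 40 UMIs and the pseudocount of 50, and the share lower 0.964% with the last. The cytotoxic median for BT mutant over BT WT was 1.11 thinned, the same value as Gzma alone. Signs turned for Gzma in BT mutant over BT WT (1.11 thinned, 0.22 without the deepest cells, 0.44 with equal weight per cell) and over PBS (0.074 thinned). The NK receptor median in BT mutant over PBS was -0.60, over 7 of 16 genes. It was 0.00128 with the 10% limit, 0.11 with 2 Cd8 UMIs and 0.29 with 40 UMIs. In members under 5 Ccl5 UMIs it was 0.94, over 3 genes. These medians cover only the genes that entered and are not read as a result on the list. The cause of the turned signs was not tested. The setting of members under 5 Ccl5 UMIs was chosen after seeing the data. The 64 BT mutant members limit every comparison with that library.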
